A study of Mus musculus with 2 samples.

Results

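The 10 genes described here encode SR splicing factors of the mouse: Srsf1, Srsf2, Srsf3, Srsf4, Srsf5, Srsf6, Srsf7, Srsf9, Srsf10 and Srsf11. They were chosen by gene symbol among 20830 genes in the table of the 10 percent aliquot and 26997 in that of the 90 percent aliquot. The rule used no measured value, but earlier results of these data were known when the genes were chosen. All 10 were present in both tables and in the long-read table, which held 12032 genes. In mm10 they lie at chr11:88047373-88053755 (Srsf1), chr11:116849901-116853094 (Srsf2), chr17:29032628-29043373 (Srsf3), chr4:131873617-131901706 (Srsf4), chr12:80945504-80950507 (Srsf5), chr2:162931528-162937121 (Srsf6), chr17:80200080-80207307 (Srsf7), chr5:115327177-115333080 (Srsf9), chr4:135855747-135869908 (Srsf10) and chr3:158010473-158036639 (Srsf11). Srsf2, Srsf7 and Srsf11 are on the - strand and the other 7 on the + strand.

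The cells were muscle stem cells from hindlimb muscles of Pax7CreERT2;R26RYFP mice on a C57BL6 background, aged 3 months, in which tamoxifen (20 mg/ml, 5 days) switches on YFP through a Cre driven from Pax7, and the cells were sorted for YFP. Quiescent and activated cells were collected, the latter 72 hours after muscle injury with 1.2% barium chloride, and both went into 1 capture of droplets that was divided into 2 aliquots; how many mice were combined is not given in the sources used here. Short reads (3′ UMI counts per gene) were made for both aliquots, and nanopore long reads (UMI counts per isoform) for the 10 percent aliquot. The labels do not say which barcode came from which mouse or state, so the barcodes were compared by depth: a shallow class of 3000 to 15000 UMIs without a UMI of the cell cycle genes Rrm2, Top2a and Cdk1, and a deep class of at least 20000 UMIs. With 1 capture there are no replicates, no test was possible, and every interval below is a 95% interval of counting error alone.

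An SR protein carries 1 or more RNA recognition motifs and a domain rich in arginine and serine. SR proteins bind enhancer sequences in exons and recruit the spliceosome to nearby splice sites, and kinases of the CLK and SRPK families control where they reside by phosphorylating the serines. Several SR genes are known to limit their own output: inclusion of a "poison" exon, or retention of an intron, puts a premature stop codon into the transcript, which is then held in the nucleus or degraded by nonsense-mediated decay (NMD).

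The sequences of these stops, as the Gencode reference transcripts hold them (mm10, 5′ to 3′ on the strand of the gene), show how soon after the splice site reading ends. The premature stop codon is in capitals, and each line begins at the first base of the alternative exon. Srsf3-201 ends in the cassette exon at chr17:29039454-29039909 (456 bases, + strand), Srsf7-203 in the one at chr17:80204622-80205081 (460 bases, - strand), Srsf6-201 in the exon at chr2:162932815-162933082 (268 bases, + strand), Srsf5-208 in the exon at chr12:80947116-80947381 (266 bases, + strand), and Srsf4-203, whose annotated reading frame lacks its start, in the exon at chr4:131884276-131884482 (207 bases, + strand).
Srsf3-201: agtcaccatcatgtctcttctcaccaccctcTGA
Srsf7-203: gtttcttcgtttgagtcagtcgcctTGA
Srsf6-201: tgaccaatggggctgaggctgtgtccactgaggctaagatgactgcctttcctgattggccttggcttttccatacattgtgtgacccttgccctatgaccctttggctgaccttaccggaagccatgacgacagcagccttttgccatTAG
Srsf5-208: ggcttctctgtaTAG
Srsf4-203: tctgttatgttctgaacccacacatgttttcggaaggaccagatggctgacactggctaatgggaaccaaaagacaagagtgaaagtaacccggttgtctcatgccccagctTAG
The stop lay 34 bases into the cassette of Srsf3 and 28 bases into that of Srsf7, and 15 bases into the exon of Srsf5. In Srsf6 and Srsf4 it lay at 152 and 115 bases.

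The other route in these data is a retained intron. Srsf7-206 and Srsf7-207 keep the whole intron of 874 bases at chr17:80204388-80205261 that surrounds the Srsf7 cassette, and Srsf5-212 keeps an intron of 1229 bases at chr12:80947866-80949094. The first and last 60 bases of both introns are shown because they carry the splice sites that were not used, with the terminal dinucleotides in capitals.
Srsf7 intron start: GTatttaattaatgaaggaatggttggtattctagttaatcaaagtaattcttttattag
Srsf7 intron end: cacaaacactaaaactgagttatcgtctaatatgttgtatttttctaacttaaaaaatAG
Srsf5 intron start: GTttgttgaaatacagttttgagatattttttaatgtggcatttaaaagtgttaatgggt
Srsf5 intron end: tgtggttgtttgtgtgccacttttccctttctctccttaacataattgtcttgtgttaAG

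The tables shared barcodes, which touches every comparison between them. By the methods, intact droplets were divided between the aliquots, so that a cell should be in 1 aliquot. Of the 1991 barcodes of the 10 percent table and the 3001 of the 90 percent table, 634 had the same sequence, and all 157 shallow and all 79 deep barcodes of the 10 percent table were also listed in the 90 percent table. Over these 236 barcodes the log2 counts of 20506 genes correlated at a median r of 0.934 (across genes, which are not independent) with the same barcode in the other table and of 0.666 with other barcodes, and 232 were closest to their own. Why the barcodes recur was not tested. The tables were not treated as independent, and levels of the 90 percent table are also given without the shared barcodes. The 90 percent table had 1243 shallow and 606 deep barcodes (medians of 4680 and 47106 UMIs), of which 1000 and 399 were not shared. The 10 percent table had medians of 6729 and 65499 UMIs. Between the limits, in neither class, lay 12 barcodes of the 10 percent table and 42 of the 90 percent table with over 15000 and under 20000 UMIs, and 21 and 148 barcodes with a cell cycle UMI in the shallow range. No doublets were called or removed.

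The classes differed in much besides the SR genes. The 8 markers of quiescent muscle stem cells summed to 988 CPM (UMIs per 1000000 UMIs of the class) in shallow and 43.4 CPM in deep barcodes of the 90 percent table, and 571 of 606 deep barcodes held a cell cycle UMI. The 8 markers of activated or cycling muscle stem cells summed to 1140 against 859.8 CPM. Myod1 (1069 against 213 CPM) made up most of the sum in shallow barcodes, and the other markers most of it in deep ones. Of these 8 markers, 4 were at least 2-fold higher in deep and 1 in shallow barcodes. Rrm2, Top2a and Cdk1 were at 0 in shallow barcodes by the rule that made the class. Markers of other cell types were higher in the shallow class: the 8 immune markers summed to 315 against 4.79 CPM and the 6 fibro-adipogenic markers to 617 against 58.7 CPM, with Pdgfra at 0 in shallow barcodes, while the 6 endothelial markers (20.3 against 5.59 CPM), the 5 mural markers (92.1 against 47.9 CPM, Myh11 at 0 in shallow) and the 6 myofibre markers (83.5 against 66.7 CPM) were low in both. In the 10 percent table, on whose barcodes the isoform results rest, the sums were 722 against 45.5 CPM for quiescent markers, 337 against 106 CPM for immune markers (2 at least 2-fold higher in shallow, 1 in deep, Ptprc and C1qa at 0 in shallow), 440 against 67.5 CPM for fibro-adipogenic markers, 30.5 against 4.31 CPM for endothelial, 85.2 against 78.4 CPM for mural and 61.01 against 36.7 CPM for myofibre markers. In the long reads, immune markers summed to 661 against 225 CPM, with 1 at least 2-fold higher in shallow and 3 in deep barcodes. Of the 8 activated or cycling markers, 7 were there at least 2-fold higher in deep and 1 in shallow barcodes. Mbp, a myelin gene, was 23.3 against 0.392 CPM in the 10 percent table and 71.6 against 2.38 CPM in its long reads. In the 90 percent table Malat1, a nuclear RNA, stood at 24665 against 2253 CPM, and mitochondrial genes took 1.28% against 1.19% of UMIs. In the 10 percent table mitochondrial genes took 0.883% against 0.881%. The part of cell state, of other cell types, of nuclear RNA and of depth itself in the SR results was not tested. Values without barcodes that held UMIs of at least 2 markers of another cell type are given below.

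Of the 10 SR genes, Srsf5 and Srsf4 differed at least 2-fold in level between the classes, both higher in shallow barcodes, and the other 8 differed less. In the 90 percent table, 47.3% of the 10657 genes with at least 100 UMIs differed at least 2-fold, 15.8% higher in shallow and 31.5% higher in deep barcodes. The SR genes counted 2 of 10 higher in shallow and 0 in deep barcodes, and the same was true of each of the other sets. The background was 45.8% of 4776 genes in the 10 percent table (12.3% higher in shallow, 33.5% in deep), 47.0% of 9387 genes without the shared barcodes (15.7% and 31.3%), and 44.9% of 5706 genes in the long reads (16.7% and 28.2%). The share of SR genes higher in shallow barcodes was near that of all genes. The median log2 ratio of deep to shallow was -0.40 for the SR genes and 0.35 for all genes of the 90 percent table (-0.31 and 0.43 in the 10 percent table, -0.41 and 0.34 without shared barcodes). The median gene was thus higher in deep and the median SR gene higher in shallow barcodes.

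**Figure D1:**
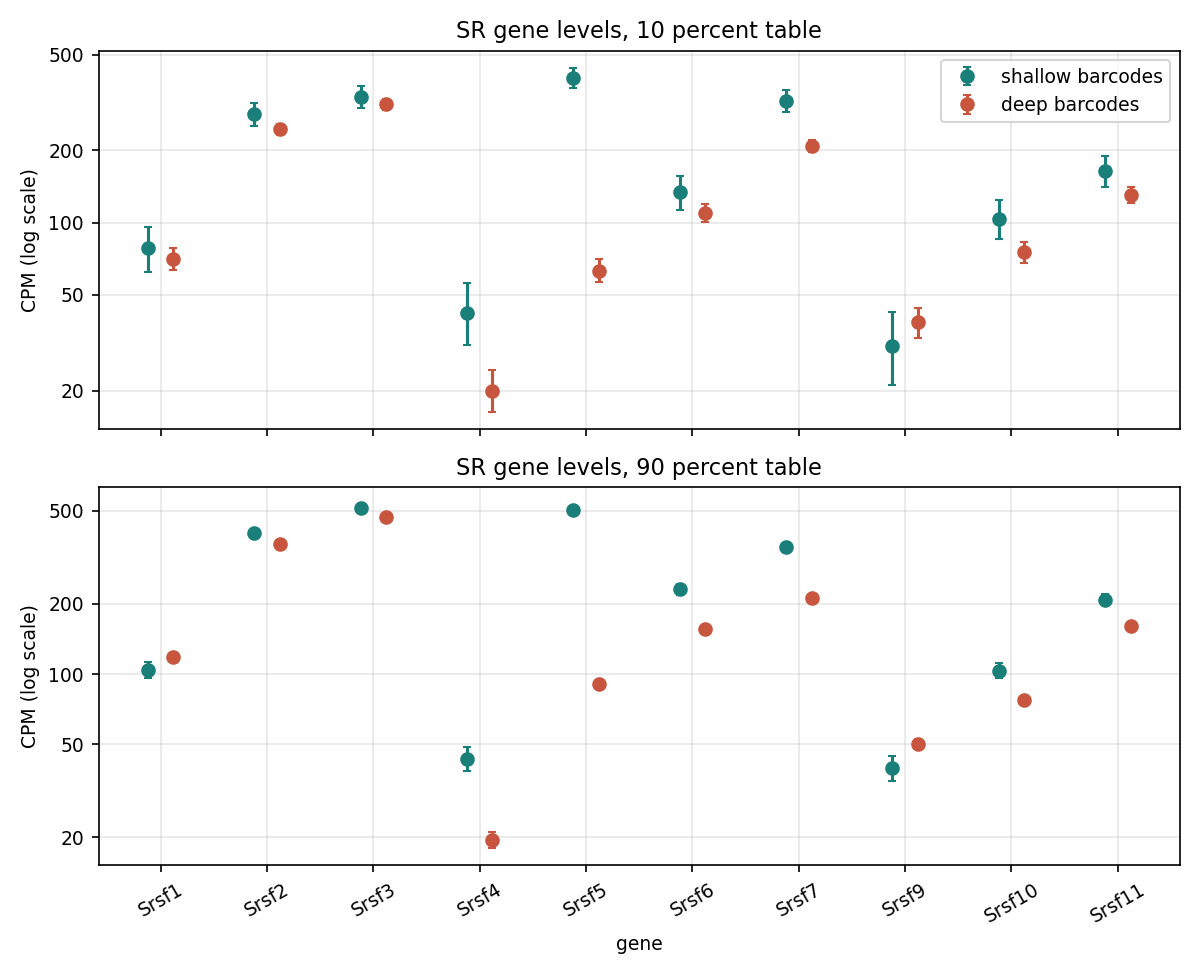
Levels of the 10 SR genes in CPM (log scale) summed over shallow (teal) and deep (red) barcodes of the 10 percent table (top) and the 90 percent table (bottom); bars are exact Poisson 95% intervals of counting error. Srsf5 sits at 401 and 503 CPM in shallow barcodes against 63.1 and 91.0 CPM in deep ones.

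Srsf5, an SR protein with a pair of RNA recognition motifs, showed the largest difference of the 10. Its level was 401 CPM (447 UMIs) in the shallow and 63.1 CPM (322 UMIs) in the deep barcodes of the 10 percent table, which is 6.35-fold higher in shallow (interval 5.49 to 7.35). In the 90 percent table it was 503 CPM (3245 UMIs) against 91.0 CPM (2720 UMIs), 5.52-fold (5.25 to 5.81), and 507 against 93.2 CPM without the shared barcodes, 5.44-fold (5.12 to 5.79). The long reads gave 1029 against 215 CPM of long-read UMIs, 4.79-fold. Srsf5 took 20.1% of all SR gene UMIs in shallow barcodes and 5.30% in deep ones of the 90 percent table, and shared the highest place with Srsf3 in the former while it ranked 7th in the latter. Within the shallow class it was 575 CPM in barcodes of 3000 to under 5000 UMIs, 493 CPM from there to under 8000 and 319 CPM at 8000 or more. Within the deep class it was 103 CPM under 40000 UMIs and 83.1 CPM at 60000 or more. The gap between the classes thus exceeded the slope within either class, and both slopes ran the same way. In the 10 percent table the slope in the shallow class was flatter, at 423, 418 and 375 CPM, with overlapping intervals.

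The difference was also seen in the typical single barcode. The median Srsf5 level of a shallow barcode of the 90 percent table was 443 CPM (quartiles 183 and 783), against 61.2 CPM (29.4 and 125) in deep barcodes. A shallow barcode held 2.61 Srsf5 UMIs on average and at most 14, and a deep barcode 4.49 and at most 25. Thinned to 3000 UMIs each, 69.5% of 1243 shallow barcodes held an Srsf5 UMI against 22.1% of 606 deep barcodes, a difference of 47.4 points (43.0 to 51.4). No barcode was left out as too shallow. Without the shared barcodes the shares were 69.1% and 22.6%. Before thinning the order was the other way, at 80.9% and 87.1%. SR genes are used by every cell type, so no barcodes can serve as a background without the genes. In barcodes under 500 UMIs, Srsf5 stood at 162 CPM (16 UMIs) in the 90 percent table and 161 CPM (8 UMIs) in the 10 percent table, between its levels in shallow and deep barcodes.

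Srsf4, a large SR protein with a long serine- and arginine-rich tail, was the other gene past 2-fold. It was 42.2 CPM (47 UMIs) in shallow and 20.0 CPM (102 UMIs) in deep barcodes of the 10 percent table, 2.11-fold higher in shallow (1.46 to 3.01). The 90 percent table gave 43.2 CPM (279 UMIs) against 19.5 CPM (582 UMIs), 2.22-fold (1.92 to 2.56), and 42.9 against 18.9 CPM without shared barcodes, 2.27-fold. In long reads the ratio was 2.37-fold (176 against 249 UMIs). The intervals for Srsf4 reached below 2-fold in all 4 sets, and leaving out the 477 shallow and 242 deep barcodes that held UMIs of at least 2 markers of another cell type put the log2 ratio of deep to shallow at -0.96 in the 90 percent table. In the 10 percent table, where 66 shallow and 39 deep barcodes were left out, it was -0.20. The same step left Srsf5 at -2.48 and -2.99. It took no account of depth, so it does not show that the barcodes left out were other cells.

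Srsf7, Srsf6, Srsf11 and Srsf10 were higher in shallow barcodes of both tables but under 2-fold. Srsf7, which has a zinc knuckle beside its RNA recognition motif and also acts in mRNA export, was 320.3 against 208 CPM in the 10 percent table and 349 against 212 CPM in the 90 percent table, 1.54-fold (1.36 to 1.73) and 1.65-fold (1.57 to 1.73). Without shared barcodes it was 1.76-fold. Srsf6, a close relative of Srsf4 and Srsf5 with a pair of RNA recognition motifs, was 134 against 110 CPM and 230.5 against 156 CPM, 1.22-fold and 1.47-fold (1.39 to 1.56) higher in shallow, and 1.52-fold without shared barcodes. Srsf7 differed more than Srsf6 in each set. Srsf11, which has a domain rich in arginine and serine and binds factors of the 3′ splice site, was 164 against 130.0 CPM and 209 against 161 CPM, 1.26-fold and 1.30-fold (1.32-fold without shared barcodes). Srsf10, a splicing repressor when dephosphorylated, was 103 against 75.1 CPM and 104 against 77.1 CPM, 1.37-fold and 1.34-fold (again 1.34-fold without shared barcodes).

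Srsf3, Srsf2, Srsf1 and Srsf9 differed least in the 90 percent table. In the 10 percent table Srsf9 differed more than Srsf6. Srsf3, the smallest SR protein, was 333 against 310.2 CPM in the 10 percent table and 516 against 471 CPM in the 90 percent table, 1.07-fold and 1.10-fold higher in shallow (1.14-fold without shared barcodes), and it led the SR genes in deep barcodes of both tables. Srsf2, a marker protein of nuclear speckles, was 283 against 244 CPM and 401 against 362 CPM, 1.16-fold and 1.11-fold (1.12-fold without shared barcodes), while long reads gave 76.7 against 84.7 CPM, the other direction. Srsf1, the prototype of the family, was 78.1 against 70.8 CPM in the 10 percent table and 104 against 118 CPM in the 90 percent table, so its direction differed between the tables. In the latter it was 1.14-fold (1.05 to 1.24) higher in deep barcodes, and 1.10-fold (0.999 to 1.21) without shared barcodes. Srsf9, another small relative of Srsf1, was higher in deep barcodes of both tables, at 30.5 against 38.4 CPM (34 and 196 UMIs) and 39.4 against 50.1 CPM (254 and 1497 UMIs), 1.26-fold (0.872 to 1.87) and 1.27-fold (1.11 to 1.46), and 1.28-fold without shared barcodes. In long reads Srsf9 ran the other way, at 43.4 against 37.4 CPM with an interval across equality. In the 90 percent table the log2 ratio of deep to shallow was 0.35 for Srsf9, the value of the median gene to 2 decimals, and that of Srsf1 was lower.

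**Figure D2:**
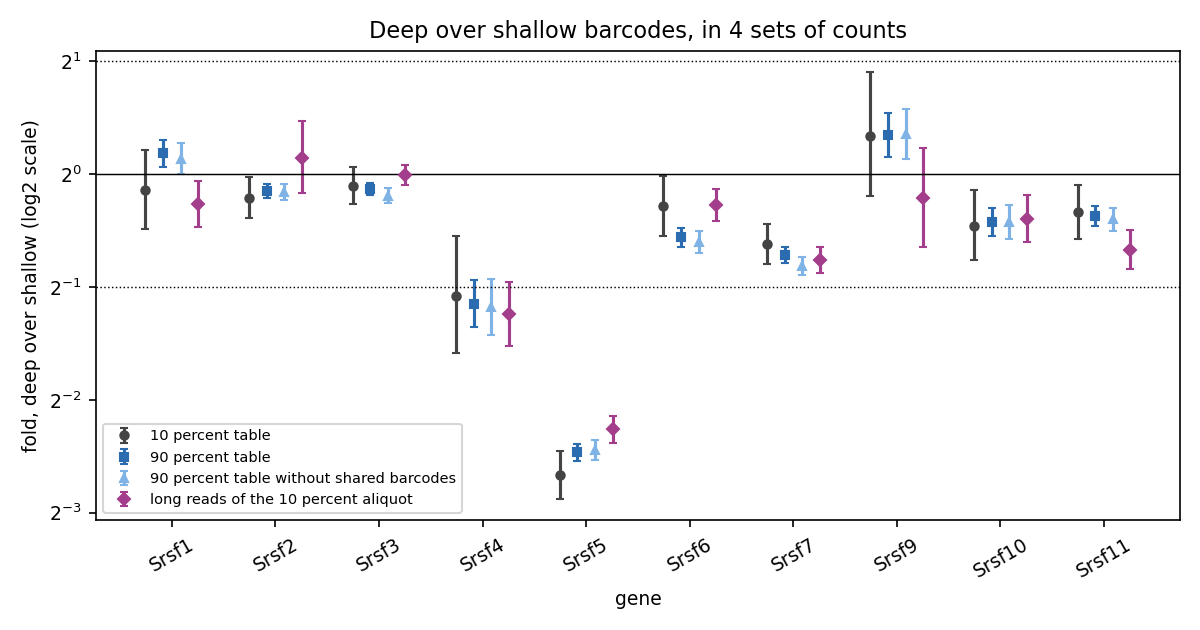
Fold of deep over shallow barcodes (log2 scale) for each SR gene in the 10 percent table, the 90 percent table with and without the shared barcodes, and the long reads of the 10 percent aliquot; bars are exact binomial 95% intervals, dotted lines mark 2-fold. Srsf5 lies between 0.157 and 0.209 in all 4 sets and Srsf4 between 0.423 and 0.474, and the other 8 genes lie inside the dotted lines.

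Together the 10 genes took 1889 CPM of the shallow and 1270.4 CPM of the deep UMIs in the 10 percent table and 2499 against 1719 CPM in the 90 percent table, 1.49-fold and 1.45-fold higher in shallow. Without Srsf5 the ratios were 1.23-fold in both. In shallow barcodes of the 90 percent table the order ran Srsf3, Srsf5, Srsf2, Srsf7, Srsf6, Srsf11, Srsf1, Srsf10, Srsf4 and Srsf9, where Srsf3 and Srsf5, Srsf6 and Srsf11, Srsf1 and Srsf10, and Srsf4 and Srsf9 were neighbours with overlapping intervals. In deep barcodes Srsf3, Srsf2 and Srsf7 led at 471, 362 and 212 CPM, and Srsf4 was last at 19.5 CPM. These are levels of 3′ tags, which do not depend on transcript length.

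Within the shallow class of the 90 percent table, most SR genes were higher in barcodes with a UMI of Myod1, a transcription factor of activated muscle stem cells. The 604 barcodes with and the 639 without a Myod1 UMI had similar depths (medians of 4730 and 4613 UMIs). For 7 of the 10 SR genes the level with Myod1 was higher and the intervals did not overlap, as for 7.54% of 4812 genes. Without the shared barcodes it was again 7, against 7.08% of 4169 genes. Intervals are narrower for genes with more UMIs, and the SR genes were not set against genes of like count. Srsf9 and Srsf4, whose intervals overlapped, had the fewest UMIs of the 10 in the shallow class (254 and 279). The 477 shallow barcodes with UMIs of at least 2 markers of another cell type were not left out here. Srsf5 was 551 CPM with Myod1 and 457 CPM without, Srsf1 121 against 87.3 CPM, Srsf2 442 against 361 CPM, Srsf3 557 against 477 CPM, Srsf6 258 against 204 CPM, Srsf7 378 against 322 CPM and Srsf10 116 against 91.6 CPM. The intervals overlapped for Srsf9 (46.1 against 32.9 CPM), Srsf11 (223 against 195 CPM) and Srsf4 (43.6 against 42.9 CPM). In the 10 percent table, Srsf1 alone was higher with Myod1 with intervals that did not overlap (104 against 48.0 CPM), as were 6.16% of 1282 genes, and Srsf4 ran the other way (35.4 against 49.9 CPM). Srsf5 was there 435 against 363 CPM, with overlapping intervals, and in both groups of both tables it was above its deep level.

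Genes that act with the SR proteins were read from lists, against the 15.8% of all genes of the 90 percent table that were at least 2-fold higher in shallow and the 31.5% that were higher in deep barcodes. Of the 11 kinases, phosphatases and importers of SR proteins 10 had at least 100 UMIs in the 90 percent table, of which 3 were at least 2-fold higher in shallow and 2 in deep barcodes (median log2 ratio of deep to shallow -0.62, against 0.35 for all genes). Clk1 and Clk4, kinases that release SR proteins from nuclear speckles, had the lowest ratios of deep to shallow, at 115 against 30.5 CPM and 58.0 against 17.5 CPM. Ppp1ca, a catalytic subunit of protein phosphatase 1, and Srpk1, an SR kinase found mostly in the cytoplasm, had the highest, at 120 against 380.2 CPM and 29.4 against 62.7 CPM. Of 21 SR-related proteins, 20 passed and 7 were at least 2-fold higher in shallow barcodes, with 0 higher in deep (median -0.57). Srsf12, which was put in this list and not among the 10 genes, was at 0 in both classes. Rsrp1 (323 against 85.0 CPM) and Srrm2, a scaffold of nuclear speckles (510.2 against 136 CPM), had the lowest ratios of deep to shallow, and U2af2 (42.2 against 59.01 CPM) and Scaf11 (57.2 against 63.7 CPM) the highest.

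Factors of NMD differed less. All 15 had at least 100 UMIs, 1 was at least 2-fold higher in deep barcodes and 0 in shallow (median 0.14). Magoh, a subunit of the exon junction complex, was 69.4 against 158 CPM and Upf3b, which links that complex to decay, 20.6 against 38.0 CPM, at the upper end. The lowest ratios were those of Casc3 (15.7 against 10.7 CPM) and Smg1 (28.7 against 20.3 CPM). Nuclear RNAs and immediate-early genes are given because they mark RNA retained in nuclei and stress of dissociation. Of the 5 nuclear RNAs 4 were at least 2-fold higher in shallow barcodes, with Meg3 at 1851 against 15.9 CPM beside Malat1, and Xist at 73.6 against 442 CPM and Kcnq1ot1 at 146 against 52.4 CPM had the highest ratios. Of the 11 immediate-early and stress genes 10 were at least 2-fold higher in shallow barcodes, with Egr1 at 789 against 13.4 CPM and Ier3 at 329 against 14.1 CPM at one end and Jun at 225 against 148 CPM and Hspa1b at 35.3 against 15.8 CPM at the other. The part of either group in the SR levels was not tested.

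In the long reads the SR genes were spread over many isoforms, most of them without a reference name. The 10 genes had 24747 UMIs on 163 isoforms, and 114 isoforms with at least 20 UMIs held 24187 of them. Only 15 of the 114 carried the name of a Gencode transcript, and the 99 others held 68.4% of the UMIs, against 54.7% for isoforms without a name over all genes. Srsf1 and Srsf10 had 12 such isoforms each and no named one, and the only named isoform of Srsf3 was of the NMD type. Structures of the unnamed isoforms were not taken over to the counts, because the deposited annotation numbers them differently. They are given by their genome span and number.

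**Figure D3:**
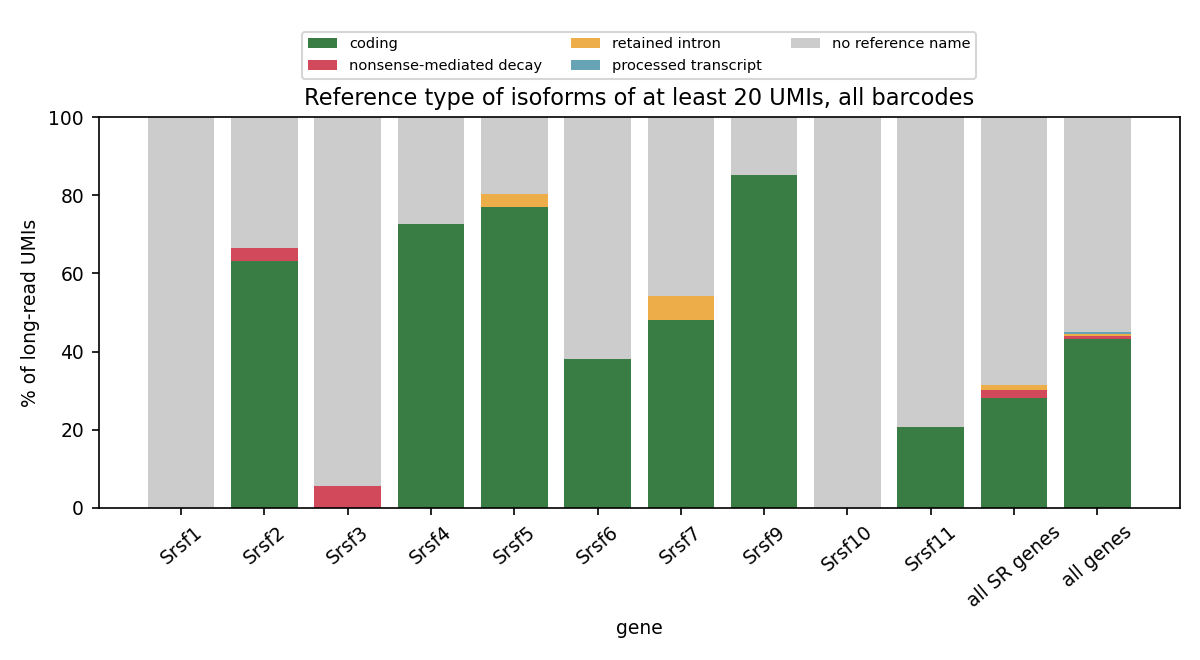
Share of long-read UMIs (%) on isoforms of at least 20 UMIs by the Gencode type of the transcript whose name they carry, for each SR gene, the 10 together and all genes, over all barcodes. Grey, isoforms without a reference name, covers 68.4% for the SR genes and 54.7% for all genes, and is 100% for Srsf1 and Srsf10.

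In Srsf9, Srsf4, Srsf5 and Srsf2, 1 annotated coding isoform held most of the UMIs. Srsf5-201 held 61.4% of the 3360 Srsf5 UMIs, with 63.6% in shallow and 62.1% in deep barcodes, while its level differed 4.79-fold in the same reads. Srsf5-205, which has the same coding length of 807 bases and another donor in its first intron, held 15.0% and 10.7%, a difference of 4.30 points (1.58 to 6.94), and an unnamed isoform at 80945532 to 80950169 (number 3) held 4.08% and 3.83%. Srsf9-201 held 85.3% of 299 UMIs (90.0% of 60 in shallow and 85.5% of 173 in deep), and the 2 others, which start at 115327395 and 115327227, held 23 and 21 UMIs. Srsf4-202 held 71.1% of 574 UMIs, with 74.4% and 67.1%, and the next isoforms (131873668 to 131901706, numbers 4 and 2) 47 and 33 UMIs. Srsf2-201 held 60.03% of 673 UMIs, with 59.4% and 59.7%, before 2 unnamed isoforms at 116849915 to 116853094 (numbers 3 and 2) of 87 and 78 UMIs. Counts of Srsf2 may hold reads of Mettl23 and Mfsd11, which overlap it on the other strand, if strand was not used in counting. Gm11508 and Gm12992 overlap Srsf1 and Srsf4 in the same way, and A930004J17Rik and Gm43362 overlap Srsf4 and Srsf11 on the same strand, so these counts are uncertain to that extent.

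Srsf7 used a pair of coding isoforms that differ at both a splice site and the 3′ end. Srsf7-201 ends 1237 bases further downstream than Srsf7-208, and its exon before the alternative donor is 9 bases longer, so that the coding length is 714 against 705 bases. Srsf7-205 uses a donor 33 bases upstream of that of Srsf7-201, lacks a later exon and has a coding length of 645 bases. The end of the exon is shown for the 3 forms (mm10, - strand, ending at 80204122, 80204131 and 80204155 of chromosome 17), with the bases past the shortest form in capitals.
Srsf7-201: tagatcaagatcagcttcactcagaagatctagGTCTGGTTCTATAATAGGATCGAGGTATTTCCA
Srsf7-208: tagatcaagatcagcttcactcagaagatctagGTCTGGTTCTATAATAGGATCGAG
Srsf7-205: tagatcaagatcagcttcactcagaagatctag
Srsf7-201 held 26.7% of 908 Srsf7 UMIs in shallow and 25.3% of 1790 in deep barcodes. Srsf7-208 held 15.2% and 25.6%, a difference of shallow minus deep of -10.4 points (-13.4 to -7.22). Srsf7-205 was rare, with 48 UMIs, and the third isoform, at 80201310 to 80207304 (number 10), held 7.60% and 6.48%. The long 3′ end of Srsf7-201 and the isoforms that share it took 36.1% of the counted UMIs in shallow and 37.8% in deep barcodes, and the shorter end, that of Srsf7-208, took 57.4% and 59.6%. Neither of these ends differed beyond its interval. A rarer 3′ end at 80204536, inside the intron around the cassette, was higher in shallow barcodes. It took 6.58% in shallow and 2.62% in deep barcodes, a difference of 3.96 points (2.27 to 5.90).

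By the rule that a gene counts where 1 isoform's share moves by at least 20 points, 0 of the 10 SR genes counted, against 17.3% of the 3265 genes with at least 50 UMIs in each class. The median over those genes of the largest shift was 10.6 points. Srsf10 came closest at 18.8 points and Srsf11 followed at 15.2 points, and the other 8 lay between 4.30 and 10.4 points. With limits of 5000 to 15000 and at least 30000 UMIs for the classes, Srsf10 passed at 20.6 points.

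In Srsf10, an isoform from 135856132 to 135868780 (number 3) held 40.4% of 260 UMIs in shallow and 21.6% of 662 in deep barcodes, a difference of 18.8 points (12.1 to 25.5). The isoforms at 135856132 to 135865815 (number 2) and to 135868382 (number 2) held 18.1% against 23.7% and 10.0% against 13.1%. Grouped by 3′ end, the end at 135868780, which lies 398 bases past the nearest reference end, took 49.0% in shallow and 32.1% in deep barcodes (16.9 points, 9.79 to 23.9), all of it in isoform number 3 and the rare number 1. Numbers 2 and 4 with the same end were 3.46% against 3.78% and 2.69% against 4.38%. The end at 135865815, that of the coding transcripts Srsf10-202 and Srsf10-204, took 19.8% and 31.8% (-11.96 points, -17.7 to -5.60).

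Srsf11 differed most once isoforms were grouped by their ends, at the 5′ side more than at the 3′ side. The gene lies on the - strand at chr3, and 2 isoforms that start at 158036584 and stop early at 158030185, at the end of the reference transcript Srsf11-219 of retained intron type, took 35.5% of 380 counted UMIs in shallow and 15.5% of 817 in deep barcodes, a difference of 20.0 points (14.6 to 25.4). The end at 158010919, that of the coding Srsf11-202, took 38.7% and 59.5% (-20.8 points, -26.6 to -14.8). Starts near 158031766, as in Srsf11-202, took 11.6% in shallow and 34.8% in deep barcodes (-23.2 points, -27.6 to -18.4), and starts near 158036584 took 75.8% and 53.6%. Among single isoforms, Srsf11-202 held 9.62% of 416 UMIs in shallow and 24.8% of 875 in deep barcodes, the isoform from 158010919 to 158036584 (number 1) 17.5% and 20.7%, and that from 158030185 to 158036584 (number 2) 18.5% and 6.63%. Grouping by ends was chosen after the values were seen, and Srsf11 was the 1 gene of the 10 past 20 points by either end. This grouping was not done for all genes, so no background share stands beside that count.

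**Figure D4:**
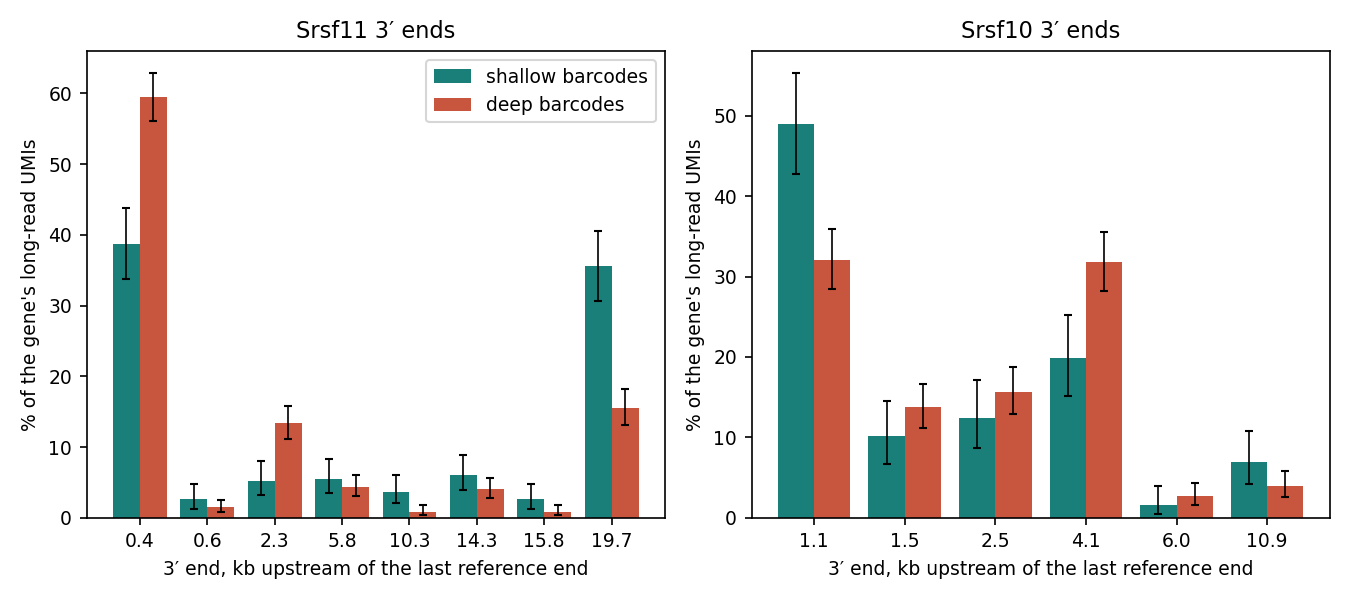
3′ ends of Srsf11 (left) and Srsf10 (right) as the share (%) of the gene's long-read UMIs on isoforms of at least 20 UMIs, in shallow (teal) and deep (red) barcodes, against the distance in kb upstream of the outermost reference 3′ end; bars are exact binomial 95% intervals. In Srsf11 the early end 19.7 kb upstream takes 35.5% against 15.5%, and in Srsf10 the end 1.1 kb upstream takes 49.0% against 32.1%.

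The leading isoforms of Srsf3 and Srsf6 differed in the length of the 3′ end. The 3 leading Srsf3 isoforms start at 29032673 and end at 29042897 (number 1), 29042243 (number 2) and 29042094 (number 4), with 42.2%, 26.0% and 16.0% of 8363 UMIs. Each was lower in shallow than in deep barcodes, at 39.5% against 44.03%, 22.2% against 27.8% and 12.7% against 17.2%, while the 3 ends themselves, all isoforms counted, differed by at most 2.16 points. Minor isoforms made up the difference, among them the NMD isoform described next. Srsf6-203 held 37.1% of 561 UMIs in shallow and 42.1% of 1549 in deep barcodes, and the shorter isoforms ending at 162935346 (number 1) and 162935208 (number 4) 27.1% against 28.9% and 12.3% against 16.5%. With all counted isoforms, the end at 162935346 was higher in shallow barcodes, at 42.3% against 34.9% (7.38 points, 2.69 to 12.1). Its isoform number 3 held 11.1% against 3.94%. The ends at 162935208 (17.4% against 19.7%) and 162937121 (40.3% against 45.4%) were lower in shallow barcodes. Srsf1 had an isoform from 88047718 to 88051490 (number 2) with 41.2% of 272 and 37.6% of 756 UMIs, one from 88049092 to 88051608 (number 1) with 14.3% and 18.1%, and one from 88047803 to 88051490 (number 1) with 5.51% and 11.1%. The end at 88051490 held 69.7% of the counted Srsf1 UMIs, and the starts joined at 88047718 held 81.3%.

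NMD and retained-intron isoforms took a larger share of UMIs in the 10 SR genes pooled than in other genes, and most of that share was Srsf3 and Srsf7. Srsf3 held 471 and Srsf7 219 of the 814 UMIs, and Srsf1, Srsf4, Srsf6, Srsf9, Srsf10 and Srsf11 held 0. For Srsf1 and Srsf10 the 0 was fixed in advance, because they had no counted isoform with a reference name. A 0 here does not show that such exons were absent, since unnamed isoforms can hold them, as described below for Srsf4 and Srsf6. The pooled share thus rests on few genes and does not describe each gene. A share without both Srsf3 and Srsf7 was not computed, so a share above that of other genes is not shown for the remaining SR genes. A counted isoform of such a type was present in 4 of the 10, Srsf2, Srsf3, Srsf5 and Srsf7, against 5.76% of 9458 genes. Genes with more UMIs reach the minimum of 20 UMIs per isoform more easily, and the SR genes were not set against genes of like count. Of the reference-named UMIs of the SR genes 10.7% (814 of 7632, 9.98% to 11.4%) lay on them, against 2.93% for all other genes. Srsf3 and Srsf7 passed a share of 10%, as did 9.21% of 4605 genes. The value of Srsf3, 100% of 471 named UMIs, only says that its coding isoforms carried no reference name, and without Srsf3 the SR share was 4.79%. Over all UMIs of isoforms of at least 20 UMIs, named or not, the share was 3.37% (3.14% to 3.60%) for the SR genes and 1.33% for other genes.

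The share was higher in shallow barcodes for Srsf3 and Srsf7. Srsf3-201, the isoform with the poison exon printed above, took 125 of 1413 Srsf3 UMIs in shallow barcodes, 8.85% (7.42% to 10.4%), and 189 of 4701 in deep ones, 4.02% (3.48% to 4.62%), a difference of 4.83 points (3.33 to 6.505). The retained-intron isoforms Srsf7-207 and Srsf7-206 took 52 and 32 of 908 Srsf7 UMIs in shallow barcodes and 52 and 11 of 1790 in deep ones, 5.73% against 2.91% and 3.52% against 0.615%. Of the Srsf7 UMIs on isoforms of at least 20 UMIs the 2 together took 9.52% and 3.58%, 5.94 points apart (3.92 to 8.19). The retained intron of Srsf5-212 showed no such difference, with 34 of 1422 (2.39%) and 28 of 993 UMIs (2.82%), although Srsf5 changed most in level. Srsf2-204 had 2 and 10 UMIs in the 2 classes, too few to compare. For all 10 genes the share of all counted UMIs was 4.50% in shallow and 2.43% in deep barcodes, and for all other genes 1.74% and 1.16%. The same direction held for 72.6% of the 307 genes with such an isoform and at least 50 UMIs in each class, with a median difference of 1.504 points, and for 2 of the 4 SR genes.

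**Figure D5:**
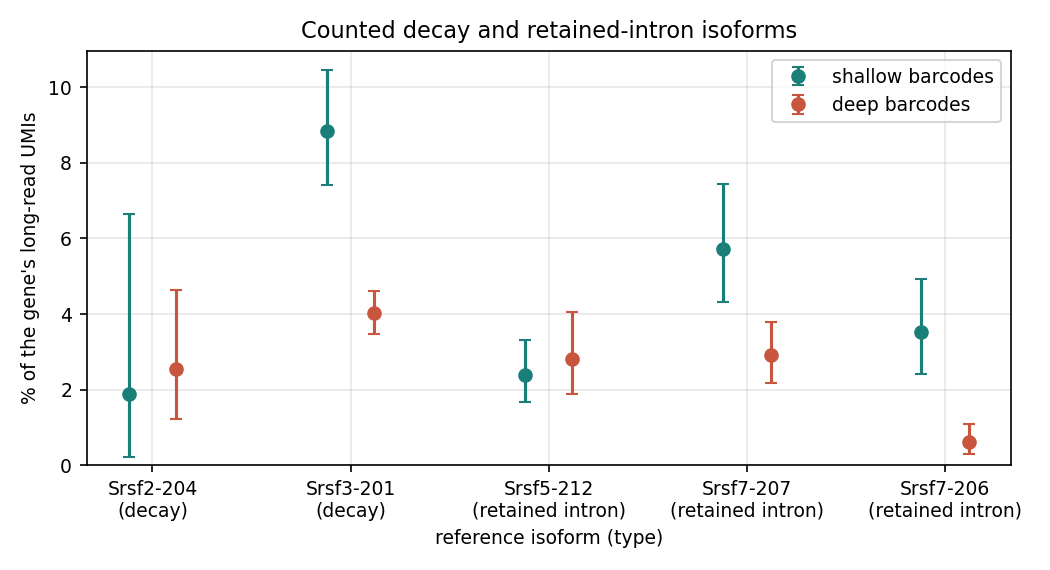
The 5 counted isoforms of NMD or retained-intron type as a share (%) of their gene's long-read UMIs in shallow (teal) and deep (red) barcodes; bars are exact binomial 95% intervals. Srsf3-201 stands at 8.85% against 4.02%, Srsf7-207 at 5.73% against 2.91% and Srsf7-206 at 3.52% against 0.615%, while the intervals of Srsf2-204 and Srsf5-212 overlap.

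Reference-named counts miss poison exons that sit in unnamed isoforms, so the deposited isoform annotation, which gives the number of reads behind each isoform over all barcodes, was read for the same exons. It held 251 isoforms of the 10 genes with 35508 supporting reads, and all 30 of those with a reference name had the exons of that transcript. The Srsf3 cassette was included as a whole exon in 7 isoforms with 1102 of 11060 reads that span it, 9.96% (9.41% to 10.5%). The Srsf7 cassette was included in 10 isoforms with 621 of 5490 reads, 11.3% (10.5% to 12.2%), and the intron around it was retained in 497 of 5317 reads, 9.35%. Isoforms covering all or nearly all of the cassette, with any exon ends, had 1389 reads in Srsf3 and 1643 in Srsf7. Reads of retained introns are among them. The Srsf4 cassette shown above was in 112 of 832 reads, 13.5% (11.2% to 16.0%), and a second one at 131885309 to 131885492 in 85, 10.2%, although Srsf4 had no counted isoform with an NMD name. The long exon of Srsf6-201 was in 358 of 4161 reads, 8.60% (7.77% to 9.50%), and again Srsf6 had no counted NMD isoform.

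In the other SR genes the shares ranged from 0 to 6.75%, and for Srsf10 none was read because the reference has no such transcript for it. The intron of Srsf5-212 was retained in 279 of 5008 reads, 5.57%, and the exon of Srsf5-208 was in 80 of 5053, 1.58%. As exons with matching ends, the 3 cassettes of Srsf11 were in 38, 33 and 20 reads, at 2.37%, 1.958% and 1.25%. Isoforms covering all or nearly all of these stretches, with any exon ends, had 56, 213 and 116 reads. The NMD exon of Srsf1 at 88049977 to 88050095 was in 54 of 2205 reads, 2.45%, and the one at 88049043 to 88049092 (Srsf1-207) in 143 of 2188, 6.54%. The other end of an Srsf9 exon at 115331450 to 115331539 (Srsf9-205) was in 31 of 459 reads, 6.75%. The cassette of the same transcript was in 0 of 459 reads, which allows a share of up to 0.800% by the exact interval, and the introns kept in Srsf2-203 in 0 of 1074. Counted by whole intron chains, Srsf11 had 459 of 2683 reads on chains of retained-intron transcripts, 17.1%, the highest such share of the 10 genes, before Srsf7 with 434 of 5490 (7.91%). These reads are not divided by barcode, so they say nothing about the classes.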

How the data were processed

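Short-read gene counts and long-read isoform counts were used as the authors deposited them. Gene-level UMI counts came from scPipe runs on 10x Chromium 3′ v2 reads (build GRCm38.p6, that is mm10). Isoform-level UMI counts came from FLAMES: barcodes matched to the short reads, alignment with minimap2 2.17, isoforms grouped by splice junctions and merged with close reference transcripts, likely truncated isoforms collapsed, ambiguous reads or reads of low transcript coverage removed, UMIs merged. The submitters' processing notes also name Cell Ranger 1.3. Removing such reads can lower counts of long isoforms. Here, counts were summed per barcode class and divided by the class total (CPM). Folds have exact conditional binomial intervals, shares Clopper-Pearson intervals, share differences Newcombe intervals, all at 95% and for counting error only. Gene folds were read for genes of at least 100 UMIs, isoforms from 20 UMIs. Transcript types and sequences came from Gencode vM21, a release other than the authors' own. Barcodes were thinned at random (seed 1) to 3000 UMIs. Python 3.11.15 with NumPy 2.4.6, pandas 2.3.3 and SciPy 1.17.1 was used, and the computations were tested on simulated counts.

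The members, lists and tests were chosen with earlier results of these data known. Named were all 10 genes, the 3 isoforms of each with the most UMIs, each reference-named NMD or retained-intron isoform of at least 20 UMIs, and of each pathway list the 2 genes with the highest and the 2 with the lowest fold in the 90 percent table. Ends within 100 bases were joined, and exons were matched to reference exons within 5 bases. Alternatives were other class limits, denominators, means over barcodes, minimum counts, thresholds and thinning depths, and barcodes left out. The result of 1 list of cell type markers is not reported here.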

Additional observations from a re-analysis of the deposited data

How the results depend on the processing

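No paired analysis was possible because there was 1 capture without replicates. The count of 2 SR genes at least 2-fold apart became 1 in both tables at 3-fold and without barcodes holding markers of another cell type, and 1 in the 10 percent table with the mean of barcode CPM, since Srsf4 dropped out each time. At 1.5-fold it was 3 in both. Over 140 member folds under alternatives, 123 stayed within the main interval, 17 left it and 3 changed sign (Srsf2 and Srsf9 with long reads, Srsf2 with class limits of 5000 to 15000 and at least 30000 UMIs in the 90 percent table).

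The count of 0 genes with an isoform shift became 3 at 10 points (Srsf7, Srsf10, Srsf11), 1 with class limits of 5000 to 15000 and at least 30000 UMIs (Srsf10), and 1 with isoforms grouped by 3′ or by 5′ end (Srsf11, chosen after seeing the data). The share over all genes was not computed for these alternatives. The NMD and retained-intron share of 10.7% was 9.52% in both classes together, 8.60% in deep barcodes, 3.37% of all counted UMIs and 4.79% without Srsf3 (chosen after seeing the data). At equal depth the SR genes, pooled over genes and barcodes, were seen in more shallow barcodes, by 4.71 points in the 10 percent and 6.85 points in the 90 percent table. No such share was computed over all genes, so these values have no background. Without Srsf5 (chosen after seeing the data) the differences were 0.684 (-3.49 to 4.74) and 2.35 points (0.785 to 3.90). These pooled intervals take each barcode once per gene as if the entries were independent. They may be too narrow and do not establish a difference. In the 90 percent table Srsf1 (-7.62) and Srsf9 (-4.14) ran the other way. Without thinning, where deep barcodes hold more UMIs, the pooled values were -36.1 and -36.7 points. Of the genes whose interval lay above 0, each turned: Srsf5 (-1.38 and -6.20) and, in the 90 percent table, Srsf4 (-32.0), Srsf6 (-37.8) and Srsf7 (-27.5). Genes whose positive difference had an interval across 0 turned too, Srsf3, Srsf4, Srsf6, Srsf7 and Srsf10 in the 10 percent and Srsf3, Srsf10 and Srsf11 in the 90 percent table. Depth limits Srsf9 and Srsf4 most, with 34 and 47 UMIs in the shallow barcodes of the 10 percent table.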
